A study of Mus musculus with 8 samples.

Results

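Mitotic regulators, the genes whose products drive entry into mitosis, attach and separate the chromosomes and divide the cell, were followed in cultures labelled as aortic endothelial cells of the mouse. The list held 49 genes, and a member was taken as measured where the array carried a probe set annotated with its symbol and no other. This gave 42 genes and 55 probe sets, out of 8251 genes on the array. Signals averaging 200 or more across the 8 arrays were found for 38 members, which were tested together with the rest of the array (4670 genes, 6007 probe sets), and differences are given for those 38. Bub1b, Ccnb1, Cdc25b, Cenpf, Espl1, Ncapd2 and Tpx2 had no such probe set, so their signal was not analysed here, and they enter only the count of promoter motifs (Tpx2 excepted).

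Each of the 8 Affymetrix arrays carried RNA of 1 sample of 6000000 cells. The confluent group (n = 4) came from a mature monolayer, in which the cells have filled the dish, and the subconfluent group (n = 4) from cultures below 50% confluency. No genotype, passage, strain, age or treatment is named in the labels, and nothing there says that the numbered experiments were separate isolations, so p-values measure the spread between these samples. The question is which genes differ between a closed layer and cells that still have free space. The deposited signal is a linear value per probe set, scaled on every array to the same target of 500, with scale factors between 3.05 and 13.3. It is specific to its probe set, so levels of different genes were not set against each other. The summed marker signals below can be compared between samples within 1 list, but not between lists.

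The cell type label was set against its markers. Of 18 endothelial markers measured, 3 (Eng, Cd34 and Procr) reached the minimum, which is 16.7%, where 56.6% of all genes did. Among 16 markers of fibroblasts and pericytes 10 did (62.5%). No marker of either list was at 0 on all arrays, but the signal of Cdh5, the endothelial cadherin, ran from 5.50 to 29.5 and that of Pecam1, an endothelial adhesion molecule, from 50.1 to 163. The summed endothelial signal was 2744 to 4590 in confluent and 3253 to 4505 in subconfluent samples. The summed fibroblast and pericyte signal was 65604 to 94728 in confluent and 38123 to 53098 in subconfluent samples, and 4 of its 10 tested genes fell in limma's unpaired fit (4.06% of all probe sets did). It was highest on confluent replicate 1, the array on which most mitotic genes were lowest, and its part in the differences was not tested. Smooth muscle markers (3 of 7 tested, median log2 difference 1.14, 0 called) had summed signals of 3782, 3515, 1784 and 2029 in confluent and 6570, 10499, 1926 and 4219 in subconfluent samples, higher in every pair. Macrophage markers (1 of 12 tested, 0 called) summed to 2820 to 4218 in confluent and 2097 to 2754 in subconfluent samples, without overlap. Epithelial and mesothelial markers (2 of 8 tested, 0 called) summed to 5488 on confluent replicate 1 and to 2376, 2164 and 1943 on confluent replicates 2 to 4. In subconfluent samples they summed to 1629 to 2415. The part of these lists in the differences was not tested either. More dividing cells and more mitotic RNA per dividing cell cannot be told apart in such bulk samples.

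Mitosis is started by Cdk1, a kinase that works only when bound to a cyclin of the A or B type. The spindle checkpoint, built from the Bub and Mad proteins and the kinase Ttk, holds the cell until every chromosome is attached, and the anaphase promoting complex with its activator Cdc20 then tags cyclin B and securin for destruction. Most of these genes are transcribed late in the cell cycle under the factors B-Myb (Mybl2) and Foxm1, and they are low in resting cells such as the quiet lining of a vessel.

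Nearly all measured mitotic regulators had more signal in subconfluent samples, while few passed the test gene by gene. Of the 38 tested members 36 had a positive log2 difference (subconfluent minus confluent), where 51.2% of all tested probe sets did. The median was 0.70 against 0.01 over all tested probe sets. In limma's unpaired fit 2 of 38 rose, the survivin gene Birc5 and Cdc20, and 0 fell, at an adjusted p under 0.05. That is 5.26% of the members, and over all tested probe sets 2.75% were called higher and 4.06% lower. At an unadjusted p under 0.05, 25 of the 38 were higher and 0 lower, against 13.2% and 12.8% of all probe sets. Arrays of the same replicate number deviated together, so the numbers were treated as pairs in a second fit. With the pairs as a block 20 of 38 rose (52.6%, against 9.94% of all probe sets) and 0 fell (11.3% of all probe sets). That count fell to 7, 3 and 4 without pairs 1, 3 and 4, and it was 24 without pair 2. Over all 6007 tested probe sets 597 rose with the pairs as a block. Without pairs 1, 2, 3 and 4 these were 258, 652, 223 and 237.

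The signals did not overlap between the groups in 15 of the 38 members, all higher in subconfluent samples (39.5%, against 8.34% of all tested probe sets). None was lower without overlap, as 8.54% of all probe sets were. In 29 members all 4 pairs were higher (76.3%, against 20.7%). The labels also give each array a lot batch, 4 in all, of which A and C (named so here) held both groups. Confluent replicates 2 and 4 shared a lot without a subconfluent array, and subconfluent replicate 2 was alone in its lot. With the lot as a block these arrays add nothing to the difference, which then rests on lots A and C. Lot A holds confluent replicate 1, and its pair had the largest median difference of the members. The median difference of the members was 1.40 within lot A (1 array against 1, no test), 0.58 within lot C (1 against 2) and 0.91 with the lot as a block, in which 17 members rose (44.7%, against 6.13% of all probe sets) and 0 fell (5.24%). Of the 20 members called with the pairs as a block 14 were also called with the lot as a block. The 6 others were Birc5 (adjusted p = 0.113), Incenp (0.116), Racgap1 (0.0913), Mybl2 (0.0755), Smc4 (0.0690) and Ttk (0.0516). Ccna2 (0.0325), Bub3 (0.0392) and Smc2 (0.0447) were called with the lot alone.

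**Figure D1:**
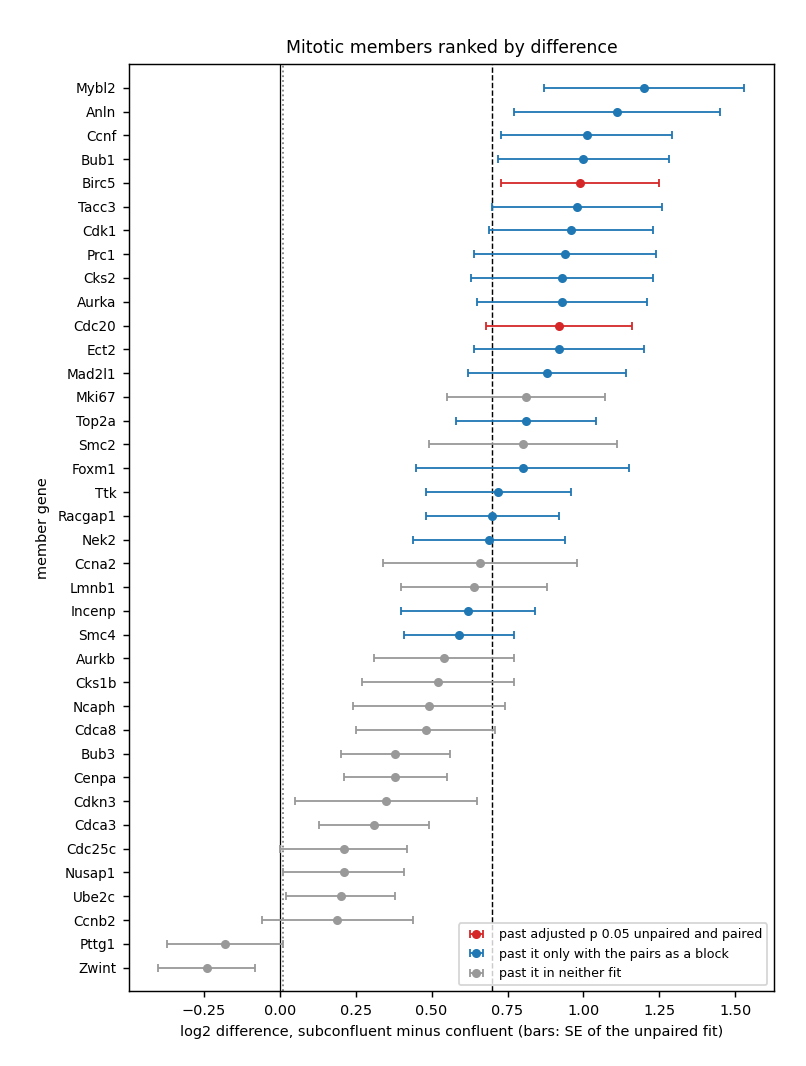
Log2 difference of each of the 38 tested members (points, subconfluent minus confluent, with the SE of the unpaired limma fit as bars), in order of size. The dashed line is the median of the members at 0.70 and the dotted line that of all tested probe sets at 0.01. Red marks Birc5 and Cdc20, which passed with and without the pairs as a block, blue the members that passed with it alone, and grey those that passed in neither fit.

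The upstream sequences of the 3 members with the smallest p, Birc5, Cdc20 and Ccnf, are shown because they can be searched for the elements through which late cell cycle genes are known to be controlled. These are the cell cycle homology region, read here as TTTGAA or TTCGAA, and the CCAAT box, bound by the factor NF-Y. The 200 bases before the annotated start are given 5′ to 3′ along the gene's strand, from RefSeq on the mouse build GRCm38.p6, with matches on either strand in capitals.
Cdc20 (chr4:118437344-118437543, minus strand): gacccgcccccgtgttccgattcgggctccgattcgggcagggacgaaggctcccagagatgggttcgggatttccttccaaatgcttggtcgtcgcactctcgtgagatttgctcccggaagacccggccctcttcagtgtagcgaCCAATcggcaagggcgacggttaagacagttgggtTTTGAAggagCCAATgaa
Ccnf (chr17:24251410-24251609, minus strand): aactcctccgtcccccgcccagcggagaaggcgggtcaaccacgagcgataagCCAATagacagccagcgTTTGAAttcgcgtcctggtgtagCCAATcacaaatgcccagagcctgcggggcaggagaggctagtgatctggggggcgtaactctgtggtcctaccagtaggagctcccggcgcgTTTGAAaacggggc
Birc5 (chr11:117849037-117849236, plus strand): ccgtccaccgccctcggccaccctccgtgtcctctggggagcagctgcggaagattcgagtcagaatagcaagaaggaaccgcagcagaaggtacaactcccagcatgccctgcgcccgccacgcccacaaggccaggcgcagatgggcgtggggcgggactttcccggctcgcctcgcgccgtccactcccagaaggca
The Cdc20 window held a TTTGAA beginning 18 bases before the start, with a CCAAT at 53 and another at 8 bases. The Ccnf window held TTTGAA at 130 and 14 bases and CCAAT at 147 and 107 bases. None of these letters stood in the Birc5 window.

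Promoters were given for 41 of the 49 members, in 44 windows of 250 upstream bases. A TTTGAA or TTCGAA stood in 18 of the 44 (40.9%), against 17.1% of 32851 windows of all genes. A CCAAT stood in 35 (79.5%), against 33.8%. All 18 windows with the first motif also held the second, a combination found in 6.02% of all windows. The E2F-type site GGCGGGAA was also searched and stood in 0 of the 44 and in 1.86% of all. None of the motifs contains another, though neighbouring matches can share letters. A match describes the sequence without showing that a factor binds it.

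Among the genes of Cdk1 and its partners 0 of 8 passed in the unpaired fit (3 at an unadjusted p under 0.05) and 3 rose with the pairs as a block. For this and the role groups below, the shares of all probe sets called higher were 2.75%, 13.2% and 9.94% in the same order. Cdk1 itself had signals of 1378, 3408, 3331 and 3337 on confluent replicates 1 to 4 and of 5017, 4895, 5946 and 5375 on subconfluent replicates 1 to 4. Every subconfluent array was above every confluent one, and the confluent arrays other than replicate 1 lay close together. The log2 difference was 0.96 ± 0.27 (SE, n = 4 per group), a 1.95-fold change, with an adjusted p of 0.0532 in the unpaired fit and 0.0128 with the pairs as a block. Ccnf, which encodes cyclin F, the substrate receptor of a ubiquitin ligase, had signals of 371, 984, 872 and 748 in confluent and 1365, 1124, 1955 and 1550 in subconfluent samples. Its groups did not overlap either, and the difference was 1.01 ± 0.28 (adjusted p = 0.0511, or 0.0148 with the pairs as a block). Cks2, a small subunit that binds Cdk1, also rose with the block (0.93, adjusted p = 0.0314, and 0.0842 without it).

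The A and B type cyclins passed in neither of these fits. Ccna2, cyclin A2, had a difference of 0.66 ± 0.32 (adjusted p = 0.217, and 0.0558 with the pairs as a block), and was called with the lot as a block (0.98, adjusted p = 0.0325). For Ccnb2, cyclin B2, the signals were 2305, 5482, 4371 and 5156 in confluent and 3828, 5469, 4990 and 4698 in subconfluent samples. Only its confluent replicate 1 lay below the subconfluent range, and the difference of 0.19 ± 0.25 (adjusted p = 0.687) had a 95% interval from -0.36 to 0.75. It changed sign to -0.08 without confluent replicate 1. The remaining members were Cks1b at 0.52, the Cdk1 phosphatase gene Cdkn3 at 0.35 and the activating phosphatase gene Cdc25c at 0.21, with adjusted p between 0.221 and 0.579.

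Of the 3 tested partners of the anaphase promoting complex Cdc20 alone was called, in the unpaired fit and with the pairs as a block. Cdc20 had signals of 958, 2357, 1783 and 1881 in confluent and 3002, 3165, 3697 and 2984 in subconfluent samples. Even the lowest subconfluent array exceeded the highest confluent one, and the gene rose by 0.92 ± 0.24 on the log2 scale, 1.90-fold (adjusted p = 0.0444, and 0.0113 with the pairs as a block). With a single array left out the call held only without confluent replicate 2, with an adjusted p of up to 0.0951 elsewhere. Ube2c, the ubiquitin-conjugating enzyme of the same complex, had signals of 223, 229, 218 and 262 in confluent and 341, 206, 281 and 282 in subconfluent samples, close to the minimum of 200. The groups overlapped and the difference was 0.20 ± 0.18 (adjusted p = 0.546).

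Pttg1 encodes securin, which holds separase inactive until anaphase. Its signals were 821, 828, 1257 and 1129 in confluent and 809, 759, 1079 and 850 in subconfluent samples. Each subconfluent array was a little below its confluent partner, and the difference was -0.18 ± 0.19 (adjusted p = 0.589, and 0.341 with the pairs as a block; 95% interval -0.59 to 0.22).

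Of the 4 spindle checkpoint genes 0 passed unpaired (3 at an unadjusted p under 0.05) and 3 rose with the pairs as a block. Bub1, the kinase that recruits other checkpoint proteins to the kinetochore, had signals of 94.3, 368, 224 and 239 in confluent and 483, 399, 485 and 549 in subconfluent samples. The groups did not overlap, although confluent replicate 2 came close to subconfluent replicate 2. The difference was 1.00 ± 0.28 (adjusted p = 0.0550, or 0.0249 with the block). Mad2l1, the inhibitor that binds Cdc20 at unattached kinetochores, had 943, 2304, 1096 and 1708 in confluent and 3301, 2703, 2185 and 2592 in subconfluent samples. Here confluent replicate 2 lay above subconfluent replicate 3, and the difference was 0.88 ± 0.26 (adjusted p = 0.0651, or 0.0247 with the block). Ttk, which acts upstream of both, rose with the block (0.72, adjusted p = 0.0136, and 0.0890 without it), and Bub3, the adaptor that carries Bub1 to kinetochores, was at 0.38 (0.0927 with the block and 0.210 without it), though called with the lot as a block (0.66, adjusted p = 0.0392). Ttk was not called with the lot as a block (0.0516).

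The chromosomal passenger complex, whose kinase Aurora B corrects wrong attachments, was represented by all 4 of its subunits. Birc5 had signals of 574, 1099, 998 and 612 in confluent and 2006, 2121, 1230 and 1293 in subconfluent samples. All subconfluent arrays were above all confluent ones, those of replicates 3 and 4 by less. Birc5 rose by 0.99 ± 0.26, 1.98-fold (adjusted p = 0.0444, and 0.0128 with the pairs as a block). Its call did not hold with the lot as a block (adjusted p = 0.113), and with a single array left out it held only without confluent replicate 2 or subconfluent replicate 3 (up to 0.111 elsewhere).

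The scaffold gene Incenp had signals of 511, 983, 944 and 855 in confluent and 1328, 1267, 1565 and 944 in subconfluent samples. Subconfluent replicate 4 fell within the confluent range, and Incenp rose only with the block (0.62 ± 0.22, adjusted p = 0.0478, against 0.110 without it and 0.116 with the lot as a block). Aurkb, the kinase, and Cdca8, borealin, were at 0.54 and 0.48 with adjusted p of 0.173 and 0.218 (0.129 and 0.114 with the block).

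**Figure D2:**
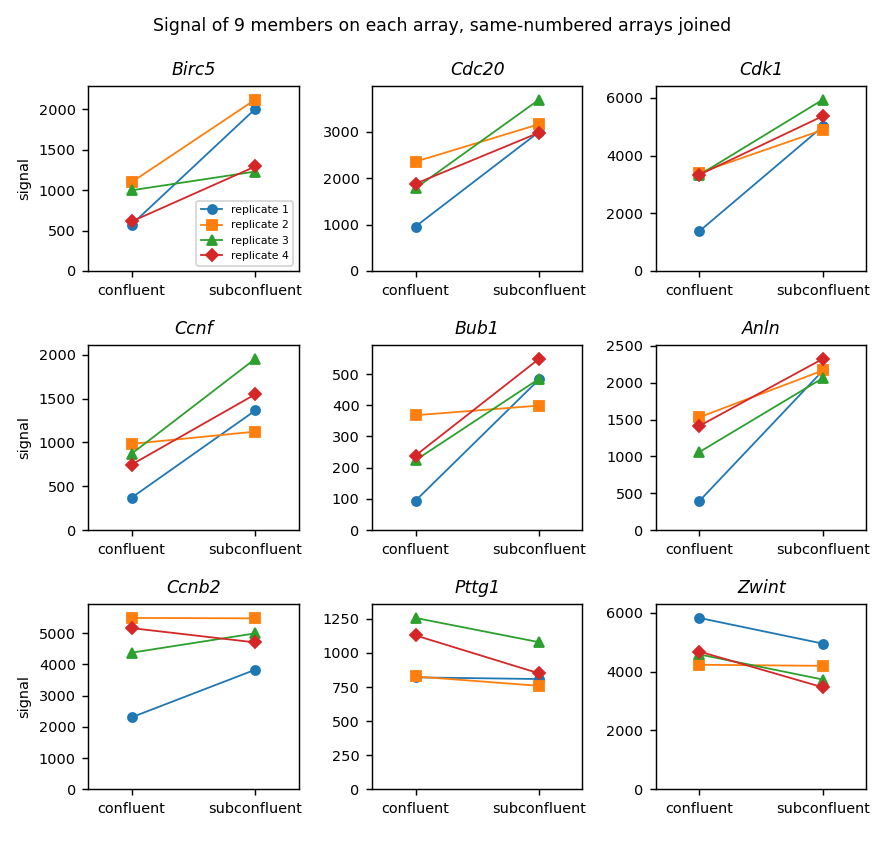
Signal (linear, vertical axes from 0) of 9 members on each array, with lines joining the confluent and subconfluent array of the same replicate number. Birc5, Cdc20, Cdk1, Ccnf, Bub1 and Anln are higher in subconfluent samples in all 4 pairs, Ccnb2 overlaps between the groups, and Pttg1 and Zwint slope down in all 4.

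Neither of the 2 tested centromere and kinetochore genes passed in limma's unpaired fit (1, Cenpa, at an unadjusted p under 0.05) or with the pairs as a block. Cenpa, the histone variant that marks centromeres, had 306, 453, 467 and 451 in confluent and 619, 550, 500 and 547 in subconfluent samples. The groups did not overlap, and the difference was 0.38 ± 0.17 (adjusted p = 0.179, and 0.136 with the block). Zwint, a protein of the outer kinetochore that brings the Rod-ZW10-Zwilch complex there, had 5823, 4232, 4583 and 4681 in confluent and 4949, 4195, 3729 and 3464 in subconfluent samples. It was the lowest of all 38 differences at -0.24 ± 0.16 (adjusted p = 0.387, and 0.173 with the block; 95% interval -0.60 to 0.12), with every pair lower. Its second tested probe set stood at -0.32 ± 0.15 (adjusted p = 0.206).

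The 6 genes that shape the chromosomes had differences from 0.49 to 0.81. None passed in limma's unpaired fit (5 at an unadjusted p under 0.05), and Top2a and Smc4 rose with the pairs as a block. Top2a, the topoisomerase that untangles sister chromatids, had 341, 821, 746 and 565 in confluent and 1034, 962, 1138 and 1154 in subconfluent samples. The subconfluent arrays were close together and above all confluent ones (0.81 ± 0.23, adjusted p = 0.0606, or 0.0224 with the block). The condensin gene Smc4 had 804, 1289, 1015 and 1090 in confluent and 1577, 1691, 1251 and 1886 in subconfluent samples. Only confluent replicate 2 reached into the subconfluent range (0.59 ± 0.18, adjusted p = 0.0752, or 0.0239 with the pairs and 0.0690 with the lot as a block). Mki67, whose product Ki-67 coats mitotic chromosomes and serves as the common marker of cycling cells, was at 0.81 ± 0.26 (adjusted p = 0.0762, and 0.0529 with the block). Smc2, the partner of Smc4, was at 0.80, the nuclear lamina gene Lmnb1 at 0.64 and the condensin gene Ncaph at 0.49 (adjusted p from 0.123 to 0.246). With the lot as a block Smc2 was called (1.22, adjusted p = 0.0447).

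Of the 4 tested spindle and centrosome genes 3 rose with the pairs as a block and 0 passed without it (3 at an unadjusted p under 0.05). Tacc3, which stabilises spindle microtubules, had 95.0, 348, 242 and 248 in confluent and 525, 536, 388 and 462 in subconfluent samples. The groups were separate (0.98 ± 0.28, adjusted p = 0.0566, or 0.0232 with the block). Aurka, the kinase of the centrosomes, had 352, 1169, 749 and 808 in confluent and 1491, 1417, 1248 and 1456 in subconfluent samples, again without overlap (0.93 ± 0.28, adjusted p = 0.0689, or 0.0265 with the block). Nek2, a kinase that splits the centrosomes, was at 0.69 (0.0318 with the block, 0.112 without it), and Nusap1, a microtubule-bundling protein, at 0.21 (adjusted p = 0.552).

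All 4 cytokinesis genes rose with the pairs as a block (9.94% of all probe sets did), although 0 passed without it (4 at an unadjusted p under 0.05). With pair 1 or pair 4 left out of that fit only Racgap1 and Anln were called. With pair 3 left out none was. Anln, the contractile ring scaffold anillin, had 395, 1530, 1059 and 1413 in confluent and 2165, 2166, 2063 and 2324 in subconfluent samples. The subconfluent values were nearly equal while the confluent ones ranged widely (1.11 ± 0.34, a 2.15-fold change, adjusted p = 0.0694, or 0.0217 with the block). Ect2, which activates RhoA at the division plane, had 272, 735, 365 and 532 in confluent and 1142, 830, 641 and 1044 in subconfluent samples. Confluent replicate 2 exceeded subconfluent replicate 3 (0.92 ± 0.28, adjusted p = 0.0667, or 0.0275 with the block). Prc1, which bundles the midzone microtubules, and Racgap1, the centralspindlin subunit that activates Ect2, were at 0.94 and 0.70, with adjusted p of 0.0267 and 0.0171 with the block (0.0828 and 0.0748 without it). Racgap1 was not called with the lot as a block (0.0913).

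The transcription factor genes Mybl2 and Foxm1 rose with the pairs as a block. Mybl2 had 150, 511, 197 and 127 in confluent and 378, 598, 672 and 631 in subconfluent samples. It was the highest of the 38 differences at 1.20 ± 0.33 (2.30-fold, adjusted p = 0.0540, or 0.0135 with the pairs and 0.0755 with the lot as a block), though confluent replicate 2 exceeded subconfluent replicate 1. A second Mybl2 probe set, whose name marks a sequence shared within a family, stood at 0.29 (adjusted p = 0.355). Foxm1 had 641, 2213, 1979 and 2177 in confluent and 2079, 2710, 3590 and 2982 in subconfluent samples. The ranges met between confluent replicates 2 and 4 and subconfluent replicate 1, and the difference was 0.80 ± 0.35 (adjusted p = 0.178, or 0.0272 with the block). Its other probe set stood at 1.14 ± 0.38 (adjusted p = 0.0871, or 0.00791 with the block). Cdca3, which triggers the destruction of the mitosis inhibitor Wee1, was at 0.31 (adjusted p = 0.312).

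Array by array, the members moved together within the confluent group far more than within the subconfluent group. Relative to each gene's confluent mean, the median member stood at -0.69, 0.46, 0.10 and 0.15 (log2) on confluent replicates 1 to 4 and at 0.66, 0.70, 0.62 and 0.70 on subconfluent replicates 1 to 4. Over all tested probe sets these medians lay between -0.02 and 0.02. Confluent replicate 1 was the lowest of all 8 arrays for 34 of the 38 members. The exceptions were Mybl2, lowest on confluent replicate 4, Ube2c and Pttg1, lowest on subconfluent replicate 2, and Zwint, lowest on subconfluent replicate 4. Confluent replicate 2 was the highest confluent array for 30 members, and for 22 it exceeded the lowest subconfluent array, against 3, 6 and 11 for confluent replicates 1, 3 and 4. No such common order was seen at the top, where subconfluent replicates 1 to 4 were the highest array for 12, 6, 9 and 8 members.

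**Figure D3:**
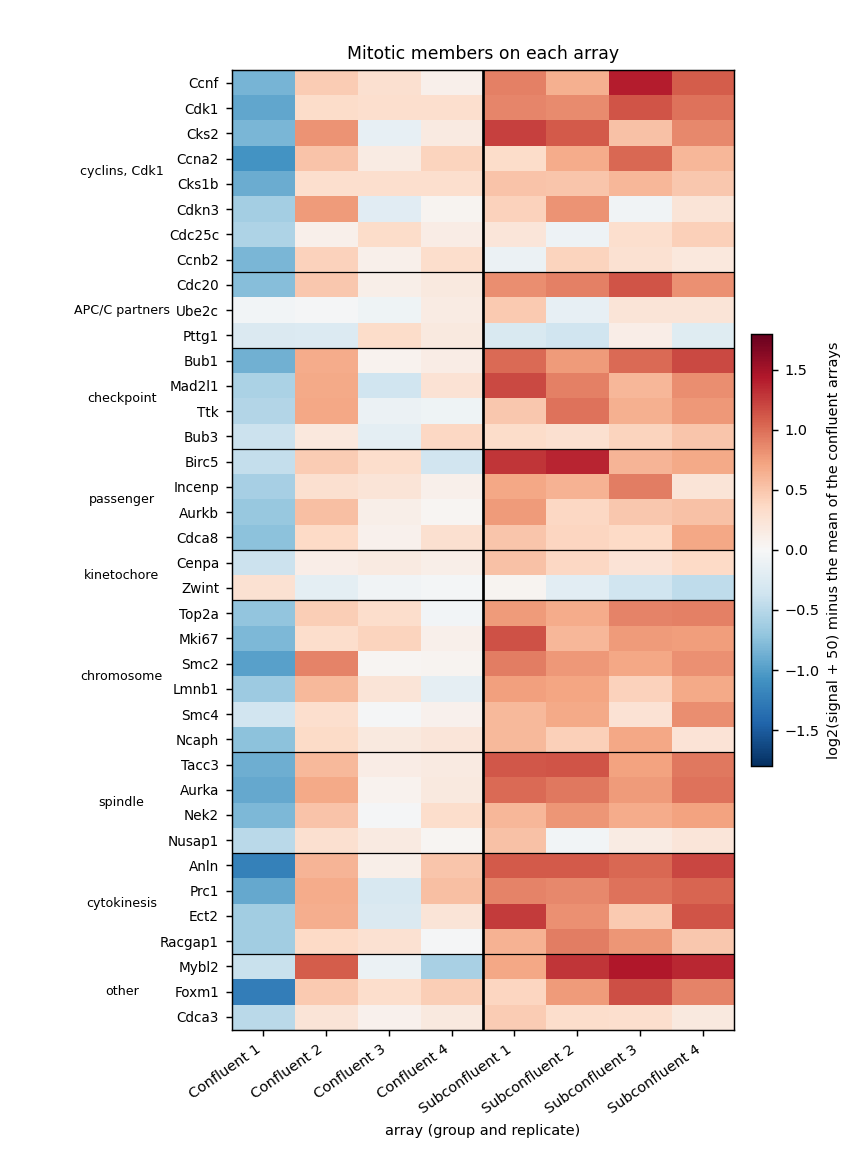
Each cell is a member's log2(signal + 50) on 1 array minus its mean over the confluent arrays (red higher, blue lower), with members in rows by role and the 8 arrays in columns. Confluent replicate 1 is blue for nearly all members, confluent replicate 2 is mostly red, and the subconfluent columns are red with exceptions such as Zwint, Pttg1, Ccnb2 and Nusap1.

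The spread followed the same pattern. The median SD of a member (log2) was 0.54 over the confluent and 0.20 over the subconfluent arrays, against 0.27 and 0.25 over all tested probe sets. In 36 of the 38 members it was larger among confluent arrays (94.7%, against 53.8% of all probe sets). Without confluent replicate 1 the median confluent SD was 0.23, and it was larger than the subconfluent SD in 21 of 38 (55.3%, against 41.4%).

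The difference between the groups therefore rested unevenly on the pairs. The median member differed by 1.40 in pair 1, 0.20 in pair 2, 0.58 in pair 3 and 0.50 in pair 4. Members higher in subconfluent samples numbered 36, 30, 34 and 34 of 38 in pairs 1 to 4, against 53.0%, 48.6%, 47.6% and 50.8% of all probe sets. Without confluent replicate 1 the median was 0.45 and 2 members rose in the unpaired fit, Cdk1 (adjusted p = 0.0349) and Anln (0.0494), while Birc5 (0.0985) and Cdc20 (0.0520) did not (1.22% of all probe sets were then called higher and 1.83% lower). Without confluent replicate 2 the median was 0.85 and 20 members rose (5.69% of all probe sets, with 5.74% lower). Of these, 18 were also among the 20 called with the pairs as a block.

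**Figure D4:**
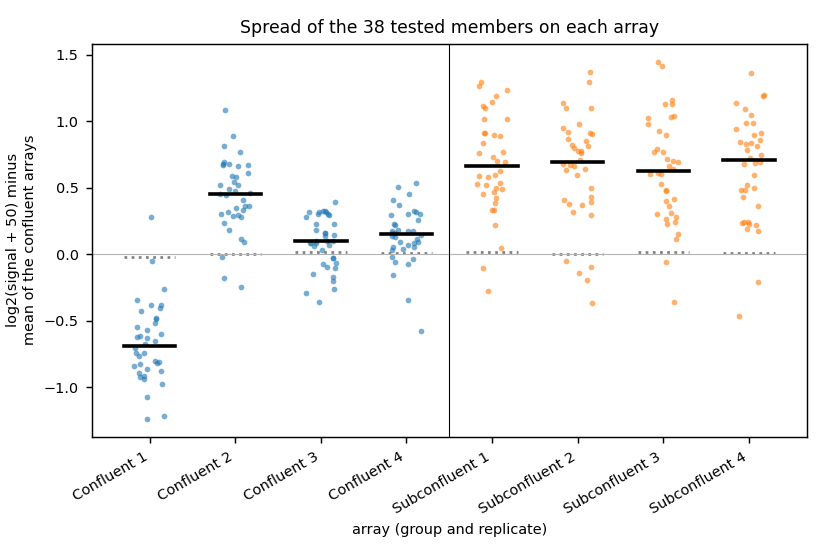
Each point is 1 of the 38 tested members on 1 array, as log2(signal + 50) minus its mean over the confluent arrays, with confluent arrays in blue and subconfluent arrays in orange. Black bars are the medians of the members, from -0.69 on confluent replicate 1 to 0.70 on subconfluent replicates 2 and 4, and dotted bars the medians of all tested probe sets.

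A further list of 101 mitotic genes outside the 49 was compared in the same fits. Of these, 55 had a probe set of their own and 47 were tested, with a median difference of 0.34 and 40 above 0. In the unpaired fit 2 of 47 rose (4.26%, near the 2.75% of all probe sets) and 0 fell (4.06% of all). At an unadjusted p under 0.05, 16 were higher (34.0%, against 13.2%) and 3 lower (6.38%, against 12.8%). With the pairs as a block 14 rose (29.8%, against 9.94%) and 2 fell (4.26%, against 11.3%). The 14 became 6, 18, 5 and 7 without pairs 1, 2, 3 and 4, and the 2 that fell became 0, 2, 0 and 0. The 2 that rose in the unpaired fit were Rcc1 and Ube2s. Rcc1, the exchange factor of Ran on chromatin (1.27 ± 0.21, adjusted p = 0.00989), kept its call without any single array. Ube2s, which extends ubiquitin chains on substrates of the anaphase promoting complex (0.96 ± 0.24, adjusted p = 0.0410), kept it in 1 of 8 such fits.

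The subunits of the anaphase promoting complex itself had differences from -0.51 to 0.15 in the 10 tested, with a median of -0.06. None was called higher in either fit. At an unadjusted p under 0.05, 0 were higher and 2 lower (20.0%, against 12.8% of all probe sets). Anapc13 alone fell with the pairs as a block (-0.42, adjusted p = 0.0385, and 0.133 without it). This share of 10.0% was near the 11.3% called lower among all probe sets in that fit. Anapc13 was not called with the lot as a block (adjusted p = 0.286). Cdc16, a scaffold subunit, was at -0.51 (adjusted p = 0.114, and 0.0624 with the pairs as a block) and was called lower with the lot as a block (-0.70, adjusted p = 0.0344). The last fit draws no difference from subconfluent replicate 2, where Cdc16 had 1339 against 760 to 829 on the other subconfluent arrays. Numa1, which anchors microtubules at spindle poles, also fell with the block alone (-0.48, adjusted p = 0.0295, against 0.170 without it and 0.324 with the lot as a block).

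Cohesin and its regulators had a median of 0.21 over 7 genes, among which Cdca5, sororin, rose with the block (0.73, adjusted p = 0.0299, against 0.0696 without it and 0.0886 with the lot as a block). The 7 mitotic kinesins had a median of 0.74, close to that of the regulators. Of these Kif20a, Kif23, Kif2c and Kifc1 rose with the block (adjusted p from 0.00589 to 0.0272) and none without it. The 4 at an unadjusted p under 0.05 were Kif20a, Kif23, Kif2c and Kif4, not Kifc1. With the lot as a block Kifc1 was not called (adjusted p = 0.401), while Kif11 (0.0495) and Kif22 (0.0368) were. The polo-like kinase genes Plk1 and Plk4, which act in spindle assembly and centriole duplication, were at 0.76 and 1.06 (adjusted p = 0.0343 and 0.0493 with the block, 0.175 and 0.0849 without it). The probe sets used for Kif20a, Kifc1, Kif22 and Plk1 have names that mark a shared or otherwise imperfect sequence. Kif20a, Cdca5 and Anapc13 had 2 tested probe sets each and Plk1 3, of which only the one with the highest mean is given.

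**Figure D5:**
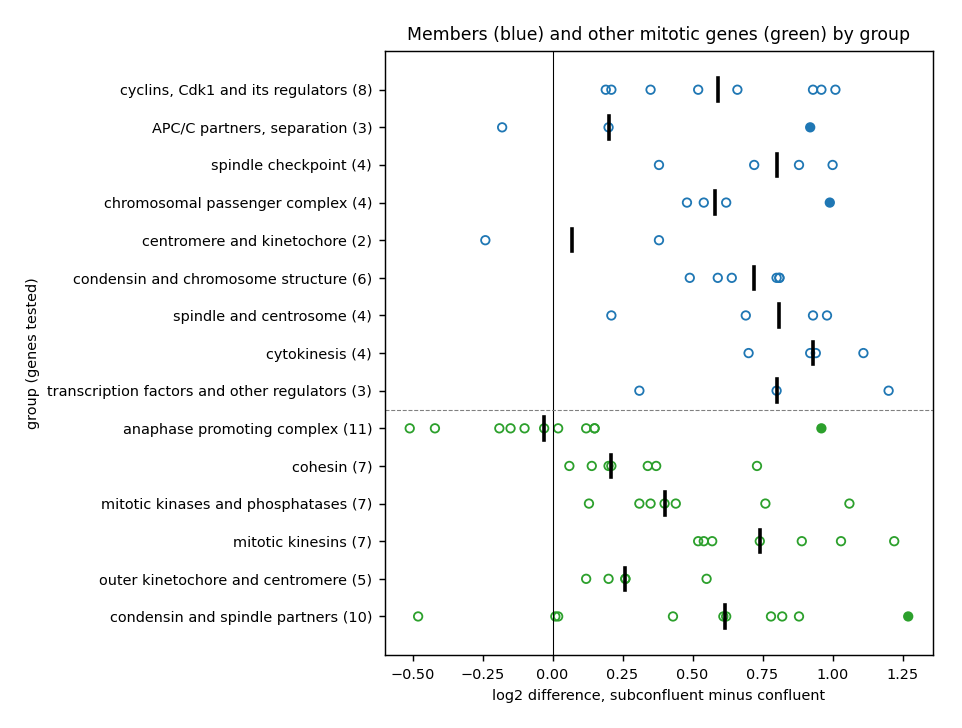
Log2 difference of each tested gene (circles, filled where the unpaired adjusted p was under 0.05) by role, for the members in blue and the other mitotic genes in green, with the number tested in brackets and black bars for the medians. Cytokinesis genes have the highest median of the member groups at 0.93, and the anaphase promoting complex group, Ube2s included, is centred near 0.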

How the data were processed

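RNA of 4 confluent and 4 subconfluent samples was measured on 1 single-colour array each. The deposited signal values, 1 linear value per probe set, came, per the labels, from the array maker's statistical algorithm as run by the authors and were scaled to 500. No software version was given in the sources used here. No further normalization was applied. Of 12488 probe sets 66 controls were left out, and 10833 had 1 symbol in the platform annotation, 396 several and 1193 none. Each gene was represented by its probe set with the highest mean; 12 members had several probe sets, and 7 of the 38 tested were represented by one whose name marks a shared or otherwise imperfect sequence (Cdc25c, Foxm1, Ube2c, Pttg1, Nusap1, Zwint and Cdca3). A pseudocount of 50 was added before taking log2 of the deposited signal, which understates folds of low genes.

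Groups were compared with limma 3.58.1 in R 4.3.3 (lmFit, eBayes with trend, two-sided, Benjamini-Hochberg over 6007 probe sets). On simulated data for this comparison, with shifts of 1 and 2 (log2), the unpaired fit recovered 76.7% and 96.9% of changed probe sets and the fit with pairs 53.4% and 94.8%. The simulated arrays were drawn independently, without deviations shared by arrays of the same number. These shares therefore cannot say which of the 2 fits recovers more on the real arrays. Same-numbered arrays of the 2 groups, which the labels count as experiments, had deviations from their group means that correlated over probe sets. The correlations were 0.486, 0.357, 0.516 and 0.348 in pairs 1, 2, 3 and 4, so the numbers were taken as pairs. The arrays of pairs 1 and 3 also shared a lot, and those of pairs 2 and 4 did not. In pairs 1 and 3 number and lot cannot be told apart. Full statistics were set for members that passed and the 2 with the smallest p in each role. The members, lists and rules were chosen with earlier results of these data known. Protein sequences were not used here. Figures and tables were made with Python 3.11.15, pandas 2.3.3 and matplotlib 3.10.9.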

Additional observations from a re-analysis of the deposited data

Results flagged for a closer look

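In 84 groups of 4 arrays (each named gene in each condition, on the log2 scale) 7 had an array whose gap to its neighbour took up more of the whole range than Dixon's critical value for such a group, where chance alone gives about 1 in 20 groups. In 5 of them the array was confluent replicate 1, with a low value. For Cdk1 it had a signal of 1378 against 3331 to 3408 on the other confluent arrays (gap ratio 0.975), for Cks1b 925 against 2180 to 2184 (0.998), and for Foxm1 641 against 1979 to 2213 (0.908). For Cenpa it had 306 against 451 to 467 (0.914) and for Ncaph 96.7 against 228 to 262 (0.846). On subconfluent replicate 3 Lmnb1 had 677 against 826 to 855 (0.854). On subconfluent replicate 2 Cdc16 had 1339 against 760 to 829 (0.848).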

How the results depend on the processing

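The direction of the members as a group held in every setting tried, while the number called did not. The median difference ran from 0.45 to 0.85 with single arrays left out and was 1.40 within lot A. Counts of members that rose were 4 with a minimum of 500, 6 with a pseudocount of 150 and with the mean over a gene's probe sets, 5 with median centring, 0 without a filter, 0 within lot C and 17 with the lot as a block; without single arrays they ran from 0 to 20. With the pairs as a block 20 rose, and 7, 24, 3 and 4 without pairs 1 to 4, an alternative chosen after seeing the data. Other mitotic genes that rose numbered 12 with the lot as a block, 1 without a filter, 0 within lot C, 1 to 10 without single arrays, and 14 with the pairs as a block (6, 18, 5 and 7 without pairs 1 to 4). Those that fell numbered 1 with the lot as a block, 0 to 1 without single arrays, and 2 with the pairs as a block (0, 2, 0 and 0 without pairs 1 to 4). Over all 6007 tested probe sets 597 rose and 679 fell with the pairs as a block. Without pairs 1, 2, 3 and 4, 258, 652, 223 and 237 rose and 353, 618, 367 and 413 fell. With the lot as a block 368 rose, without a filter 72 rose and 136 fell, and within lot C 2 rose and 3 fell. Without single arrays 18 to 342 rose and 80 to 345 fell. Of the named genes, Ccnb2 ran from -0.08 to 0.33 with single arrays left out, negative only without confluent replicate 1, and Nusap1 turned to -0.05 with the pairs as a block without pair 1; the causes were not tested. The number of arrays limits the precision.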

Other observations

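The 4 measured members that stayed below the minimum were not tested. Spag5, which encodes the spindle protein astrin, averaged 55.6 ± 14.8 signal units over confluent and 120 ± 45.5 over subconfluent samples (SD, n = 4). Stil, a centriole duplication gene, had 91.4 ± 60.9 and 102 ± 47.3, and the kinase gene Melk 40.7 ± 18.9 and 62.0 ± 34.5. The 2 probe sets of Cenpe, the kinetochore motor, ran from 5.30 to 34.9 and from 6.90 to 69.6 over the 8 arrays. Further probe sets of Bub1, Bub3, Pttg1, Nusap1, Mki67, Ncaph and Cdc25c also lay below the minimum. That of Mki67 averaged 193 ± 43.5 over confluent and 176 ± 20.3 over subconfluent samples, and that of Nusap1 126 ± 29.8 and 104 ± 28.2. These 2 went against the tested probe set of the same gene. Those of Bub1, Bub3, Ncaph and Cdc25c averaged higher in subconfluent samples, and that of Pttg1 lower.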
